A study of Homo sapiens with 44 samples.

Results

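The E2F and DP transcription factors were followed across every hairpin and treatment group of 2 neuroblastoma cell lines. The genes were taken by symbol, E2F1 to E2F8 with the partner genes TFDP1 and TFDP2, and all 10 had 1 transcript cluster of their own among the 17709 clusters with 1 gene symbol on the array. Transcript levels came from Clariom S arrays (Affymetrix) of CHP134 cells, which carry an amplified MYCN gene, and of SK-N-AS cells, which do not. Both lines had been infected with a lentiviral doxycycline-inducible hairpin construct that also carries GFP and were sorted for GFP, so each is a sorted population and not a single clone.

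CHP134 cells carried JMJD6 shRNA-1 (repeats A, B, E and F, n = 4 for each treatment), JMJD6 shRNA-2 (repeats A to D, n = 4) or a control shRNA (repeats A to F, n = 6). SK-N-AS cells carried JMJD6 shRNA-2 or the control shRNA (n = 3 for each treatment, as repeats B, C and 1 with no letter). Every line was given 2 µg/ml doxycycline (DOX) or vehicle for 40 hours, so the control lines carry the same switch and DOX without a hairpin against JMJD6. This gave 28 distinct CHP134 and 12 SK-N-AS arrays. The labels do not say that repeats are separate cultures, so the p-values rest on the spread among arrays, part of which may be technical.

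E2F proteins bind DNA as regulators of genes for S phase. E2F1, E2F2 and E2F3 are the activating members. E2F4 and E2F5 act mainly as repressors with the pocket proteins RB1, RBL1 and RBL2. E2F6 represses in Polycomb-type complexes without a pocket protein. E2F7 and E2F8 are atypical repressors that bind DNA without a DP partner. The DP proteins encoded by TFDP1 and TFDP2 dimerize with E2F1 to E2F6. Cyclin-dependent kinases phosphorylate RB1 and so release the activating members, several of which are themselves E2F target genes. JMJD6 is a Jumonji-domain protein that acts in transcription, and whether its knockdown lowers the E2F genes is the question that the induced hairpins address.

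Promoter sequences are shown for E2F1, E2F2, E2F3 and E2F7, the genes with the smallest p-values below, because E2F genes can carry E2F sites themselves. Each line is the 250 bases before a transcription start in RefSeq (GRCh38.p14), 5′ to 3′ on the strand of the gene. Capitals mark E2F motifs (TTTGGCGC, TTTGCCGC, TTTCGCGC or TTTCCCGC), CCAAT, the E-box CACGTG of MYC proteins and TTTGAA (the core of the cell cycle homology region), each searched on both strands.
E2F1 (chr20:33686386-33686635, minus strand): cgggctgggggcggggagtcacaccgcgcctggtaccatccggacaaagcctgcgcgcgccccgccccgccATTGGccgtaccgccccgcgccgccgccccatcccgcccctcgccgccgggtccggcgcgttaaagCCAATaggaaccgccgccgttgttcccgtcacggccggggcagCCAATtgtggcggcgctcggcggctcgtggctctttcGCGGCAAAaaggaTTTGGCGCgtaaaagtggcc
E2F2 (chr1:23531234-23531483, minus strand): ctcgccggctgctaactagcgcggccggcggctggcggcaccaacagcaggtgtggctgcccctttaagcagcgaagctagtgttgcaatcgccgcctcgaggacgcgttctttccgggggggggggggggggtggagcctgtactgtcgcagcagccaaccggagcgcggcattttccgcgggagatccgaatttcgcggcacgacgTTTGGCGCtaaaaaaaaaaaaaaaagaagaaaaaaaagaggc
E2F3, first of 2 starts (chr6:20401629-20401878, plus strand): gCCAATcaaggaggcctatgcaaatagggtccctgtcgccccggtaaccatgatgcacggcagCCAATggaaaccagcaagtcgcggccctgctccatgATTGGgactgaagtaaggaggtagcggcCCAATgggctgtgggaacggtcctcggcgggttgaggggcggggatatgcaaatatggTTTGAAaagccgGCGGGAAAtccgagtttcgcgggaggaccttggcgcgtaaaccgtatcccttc
E2F7 (chr12:77065570-77065819, minus strand): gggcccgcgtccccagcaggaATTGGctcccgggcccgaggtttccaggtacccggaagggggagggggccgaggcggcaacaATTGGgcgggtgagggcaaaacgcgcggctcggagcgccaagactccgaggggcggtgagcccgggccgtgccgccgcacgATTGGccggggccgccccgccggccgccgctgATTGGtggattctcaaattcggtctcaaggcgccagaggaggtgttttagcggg
The motifs were counted over 300 bases, from 250 before to 50 after each start. An E2F motif was in 3.31% of the 35116 promoters of that length, CCAAT in 34.6%, CACGTG in 7.26% and TTTGAA in 15.2%. E2F1 had 2 E2F motifs, E2F2 had 1, the first start of E2F3 had 1 and TFDP1 had 1. The E2F7 window held 4 CCAAT matches and no E2F motif of this spelling, and neither E2F4 nor E2F6 had any of the motifs. CACGTG was matched only at the second start of E2F3. A match is a description of the letters and not of binding. Promoters were matched for 8 of the 10 genes, and E2F5 and E2F8 are named only.

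The targeted gene was lower on every induced array than on every vehicle array of its hairpin. JMJD6 averaged 7.01 ± 0.17 on the log2 scale in induced shRNA-1 cells, against 7.75 ± 0.13 with vehicle (SD, n = 4 each), and 6.69 ± 0.19 in induced shRNA-2 cells, against 7.77 ± 0.11 with vehicle. In SK-N-AS it averaged 6.64 ± 0.20 in induced cells, against 7.29 ± 0.14 with vehicle (SD, n = 3 each). Control cells averaged 7.82 ± 0.17 with DOX, against 7.87 ± 0.19 with vehicle, in CHP134 (SD, n = 6 each) and 7.33 ± 0.16 with DOX, against 7.34 ± 0.14 with vehicle, in SK-N-AS (SD, n = 3 each). Set against the control cells, the fall of JMJD6 was called by limma for the mean of both CHP134 hairpins (-0.85, adjusted p = 0.0015) and for shRNA-2 (-1.01, adjusted p = 0.0193). It was not called for shRNA-1 (-0.65, adjusted p = 0.590) or in SK-N-AS (-0.64, SE 0.19, adjusted p = 0.536, and -0.67 without 2 control arrays described next). Within repeat B of SK-N-AS the value was 0.024, where the control cells were also lower with DOX, but pairing by letter was not shown for this line. The median log2 level of an array was 6.09 to 6.16 for CHP134, and for SK-N-AS it was 6.01 to 6.06. Of 8 measured adrenergic neuroblastoma markers, 7 were above background on every CHP134 array, and so were 7 of 8 mesenchymal markers. On every SK-N-AS array 8 of 8 adrenergic and 8 of 8 mesenchymal markers were above background, so these counts do not separate the lines. Their levels differed more. The mean over the adrenergic list was 7.82 to 8.14 across the CHP134 groups and 6.99 to 7.21 across the SK-N-AS groups. For the mesenchymal list it was 6.33 to 6.60 in CHP134 and 8.79 to 8.94 in SK-N-AS. The lines were normalized apart and this was not tested. Of 11 measured markers of other cell types, 6 in CHP134 and 8 in SK-N-AS were above background on every array, with a mean over the list of 4.67 to 4.92 across the CHP134 groups and 5.09 to 5.19 across the SK-N-AS groups. Background here is the 95th percentile of 612 negative control probe sets of the same array.

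In SK-N-AS, 2 control arrays stood apart from the others of their line. They are the vehicle array of the repeat with no letter and the DOX array of repeat B, whose deviations from the line's mean correlated by 0.45 with each other and by -0.39 to -0.31 with the other 4 control arrays, which correlated by 0.36 to 0.43 among themselves. These 2 arrays carry opposite treatments, so the SK-N-AS values of the 10 genes are also given without both of them. In CHP134 the repeats deviated together by letter, so results of this line are also given with the letter as a block where that changes a call. In SK-N-AS pairing by letter was not shown, so a value within a repeat of that line may set unpaired arrays against each other.

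All 10 genes were above background on every array of both lines, with 1 exception, E2F3 in induced shRNA-2 cells of repeat A. Passing this rule does not establish expression. Of 11 measured markers of other cell types, 6 in CHP134 and 8 in SK-N-AS also passed it on every array. E2F6 ran from 5.23 to 5.75 in SK-N-AS, near the mean of that marker list there (5.09 to 5.19 across groups). TFDP3, a further DP gene, was above background on 10 of 28 CHP134 arrays and on 12 of 12 SK-N-AS arrays, at 4.07 to 4.54 in the latter. The response to a hairpin is the DOX minus vehicle difference in JMJD6 shRNA cells minus the same difference in control shRNA cells, in log2 units, so a response of -1 is a halving. Of the 10 genes, 8 had a mean response below 0 over both CHP134 hairpins, with a median of -0.37, beside a median of 0.00 over all clusters. After adjustment over all 21448 clusters, 0 of 10 genes passed the threshold of 0.05 for the mean response (limma, two-sided), where 268 clusters did (1.25%). At an unadjusted p under 0.05 there were 4 of 10, all lower (E2F1, E2F2, E2F3 and E2F7), against 10.3% of all clusters in either direction. With the repeat letter as a block 3 of 10 were called, E2F2, E2F3 and E2F7, all lower, against 6.18% of clusters. With the repeat set (A and B, C and D, or E and F) as a block 4 of 10 were called, with E2F1 in addition, against 5.61%. The sets are not in the labels and were formed here from the letters. Since this is bulk RNA, fewer cells that carry a transcript and less transcript per cell cannot be told apart.

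**Figure D1:**
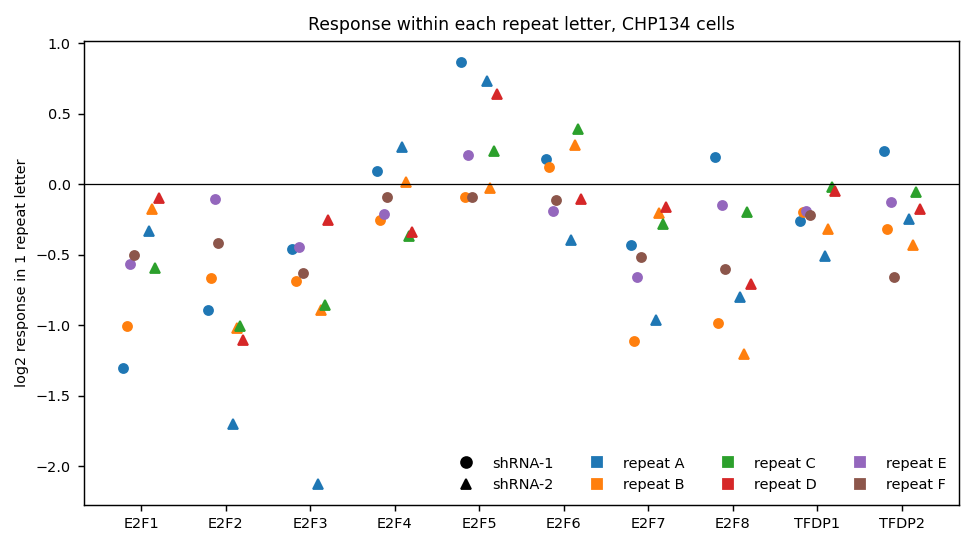
Response of each gene (vertical axis, log2) within each repeat letter of CHP134, for shRNA-1 (circles) and shRNA-2 (triangles), coloured by repeat. E2F1, E2F2, E2F3, E2F7 and TFDP1 lay below 0 in 8 of 8 pairs of hairpin and repeat, and E2F5 lay above 0 in 5 of 8. In repeats A and B both hairpins were set against the same control arrays, so the 8 pairs are not independent. The share of all clusters with such counts was not determined.

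Averaged over both CHP134 hairpins, the 3 most negative responses were those of the activating members, though E2F7 (-0.51) was below E2F1 (-0.48) when arrays were weighted. The atypical repressor E2F8 (-0.58, SE 0.32) was close to E2F1 (-0.60, SE 0.24), and the order was not tested. E2F2 stood at 7.08, 7.92, 7.31 and 7.36 in induced shRNA-2 cells (repeats A to D), against 8.73, 9.07, 8.14 and 8.27 with vehicle. In shRNA-1 cells it stood at 8.23, 8.11, 7.77 and 7.79 with DOX (repeats A, B, E and F), against 9.07, 8.90, 7.99 and 8.19 with vehicle. The control cells ran from 8.06 to 9.09 with DOX (median 8.36), against 8.13 to 9.21 with vehicle (median 8.22). Every induced shRNA-2 array was thus below every vehicle array of that hairpin, while the shRNA-1 arrays overlapped, and repeats A and B were the highest of the line in vehicle and control cells. The mean response over both hairpins was lower by 1.84-fold, at -0.88 (SE 0.30, adjusted p = 0.181 by limma), and at adjusted p = 0.0016 with the letter as a block. In that blocked fit it kept its call in 28 of 28 fits without a single array.

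By hairpin, E2F2 had a response of -1.21 to shRNA-2 (SE 0.38, adjusted p = 0.181), which was called with the letter as a block (adjusted p = 0.0067). Within the letters the shRNA-2 responses ran from -1.71 to -1.01. The response to shRNA-1 was -0.52 (SE 0.42, adjusted p = 1.000), from -0.89 to -0.11 within the letters, and -0.34 without the vehicle array of repeat A. The difference between the hairpins, shRNA-2 minus shRNA-1, was -0.57 (SE 0.39, adjusted p = 1.000), and it was not called with the letter as a block either (adjusted p = 0.294).

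E2F3 was lower in induced than in vehicle cells in both lines. In induced shRNA-2 cells it stood at 4.35, 5.85, 6.13 and 6.61 (repeats A to D), against 6.99, 7.09, 7.27 and 7.05 with vehicle. In shRNA-1 cells it stood at 6.17, 6.15, 6.55 and 6.002 with DOX (repeats A, B, E and F), against 7.14, 7.20, 6.98 and 6.51 with vehicle. Control cells were between 6.91 and 7.34 with DOX (median 7.06), against 6.91 to 7.53 with vehicle (median 7.43). The control cells were thus also lower with DOX in repeats A to D, with DOX minus vehicle values of -0.51, -0.36, -0.29 and -0.19. In repeats E and F these values were 0.017 and 0.12. The induced shRNA-2 arrays did not overlap the vehicle arrays of their hairpin, and all 8 induced arrays were below every control array. The mean response was -0.85 (1.81-fold lower, SE 0.29, adjusted p = 0.187), and it was called with the letter as a block (adjusted p = 0.042), a call that was lost in 18 of the 28 blocked fits that left out 1 array each (adjusted p between 0.0097 and 0.0842). The low array of repeat A moved the size: without it the mean response was -0.62 (adjusted p = 0.135), and -0.64 with the block (adjusted p = 0.0128).

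The response of E2F3 was -1.03 to shRNA-2 (SE 0.43, adjusted p = 0.368), which became -0.57 without the array of repeat A (adjusted p = 0.381). It was -0.56 to shRNA-1 (SE 0.24, adjusted p = 0.902). Between hairpins the difference was -0.63 (SE 0.38, adjusted p = 1.000), and -0.17 without that array (SE 0.26).

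E2F1 differed most with shRNA-1. It stood at 8.31, 8.21, 8.75 and 8.63 in induced shRNA-1 cells, against 9.58, 9.33, 9.11 and 9.16 with vehicle, which do not overlap. In shRNA-2 cells it stood at 8.80, 9.12, 8.74 and 8.68 with DOX, against 9.10, 9.41, 8.84 and 8.92 with vehicle. In control cells it ran from 8.63 to 9.63 with DOX (median 8.96), against 8.43 to 9.60 with vehicle (median 8.87). The shRNA-2 groups overlapped each other, and the induced shRNA-2 arrays lay inside the range of the control arrays. Its mean response was -0.60 (SE 0.24, adjusted p = 0.296), with an adjusted p of 0.0612 with the letter and 0.0462 with the repeat set as a block.

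The response of E2F1 to shRNA-1 was -0.84 (SE 0.29, adjusted p = 0.670). It was -1.16 within repeats A and B and -0.53 within repeats E and F. To shRNA-2 the response was -0.30 (SE 0.35, adjusted p = 0.869), and it ran from -0.47 without the DOX control array of repeat D to -0.08 without the vehicle control array of repeat C. The difference between hairpins was 0.59 (SE 0.31, adjusted p = 0.978, and 0.364 with the letter as a block). E2F1 was thus lower with shRNA-1 while E2F2 and E2F3 were lower with shRNA-2. In none of the 3 genes did the difference between hairpins pass the threshold.

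**Figure D2:**
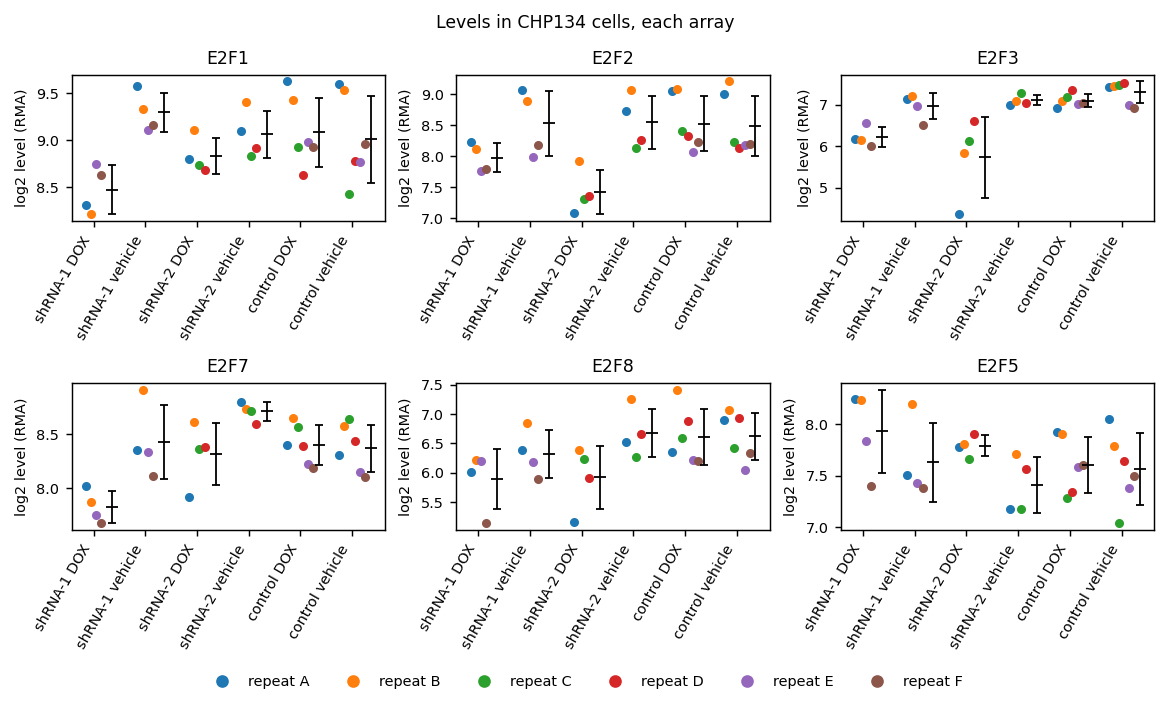
Log2 level of 6 genes on each CHP134 array (points, coloured by repeat letter) with the mean and SD of each group beside them, n = 4 for the JMJD6 hairpins and n = 6 for the control. The induced shRNA-2 arrays of E2F2 and E2F3 and the induced shRNA-1 arrays of E2F1 and E2F7 lie below the vehicle arrays of their hairpin.

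E2F7, an atypical repressor and itself an E2F target, was lower with both hairpins in CHP134. Induced shRNA-1 cells had 8.02, 7.87, 7.75 and 7.68 (repeats A, B, E and F), against 8.36, 8.91, 8.34 and 8.11 with vehicle. Induced shRNA-2 cells had 7.92, 8.61, 8.36 and 8.38 (repeats A to D), against 8.80, 8.74, 8.72 and 8.59 with vehicle. Control cells had 8.19 to 8.65 with DOX (median 8.39), against 8.10 to 8.64 with vehicle (median 8.37). All induced shRNA-1 arrays were below every vehicle and control array, while the shRNA-2 groups touched at repeats B and D. The mean response was -0.53 (1.44-fold lower, SE 0.17, adjusted p = 0.157), called with the letter as a block (adjusted p = 0.0086) and in 28 of 28 blocked fits without a single array. The responses were -0.68 to shRNA-1 (SE 0.24, adjusted p = 0.671) and -0.40 to shRNA-2 (SE 0.20, adjusted p = 0.494).

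E2F8, the other atypical repressor, had a mean response of -0.58 (SE 0.32, adjusted p = 0.583, and 0.111 with the letter as a block). It was lower in 7 of 8 pairs of hairpin and repeat, which share control arrays in repeats A and B. It had 5.17 to 6.39 in induced shRNA-2 cells, against 6.28 to 7.25 with vehicle, and 5.14 to 6.21 in induced shRNA-1 cells, against 5.89 to 6.86 with vehicle. Both hairpins' groups overlapped.

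Of the other repressors, E2F5 had a value above 0 and E2F4 and E2F6 had values near 0. E2F5 had a mean response of 0.30 (SE 0.23, adjusted p = 0.790), at 7.66 to 7.91 in induced shRNA-2 cells, against 7.18 to 7.71 with vehicle, and 7.40 to 8.25 in induced shRNA-1 cells, against 7.39 to 8.20 with vehicle. E2F4 had -0.15 (SE 0.18, adjusted p = 0.929) and E2F6 0.02 (SE 0.19, adjusted p = 0.992), neither of them larger than its SE. For E2F4 the DOX and vehicle ranges overlapped with both hairpins, and for E2F6 the 8 induced arrays ran from 5.37 to 6.14.

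The DP genes had smaller values than the activating members. TFDP1 had 9.84 to 10.10 in induced shRNA-2 cells, against 10.11 to 10.33 with vehicle, groups that do not overlap. It had 9.90 to 10.03 in induced shRNA-1 cells, against 10.02 to 10.25 with vehicle, where 1 array overlapped. Its mean response was -0.22 (SE 0.12, adjusted p = 0.608). The value was below 0 in 8 of 8 pairs, which share control arrays in repeats A and B. TFDP2 had -0.21 (SE 0.14, adjusted p = 0.736) and was below 0 in 7 of 8.

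For single hairpins in CHP134, 0 of 10 genes were called with shRNA-1 (limma, 0% of all clusters called), where 3 of 10 had an unadjusted p under 0.05 against 5.21% of clusters, and 0 of 10 were called with the letter as a block (0.0746% of clusters). With shRNA-2, 0 of 10 were called (0.779% of clusters) and 2 of 10 had an unadjusted p under 0.05 (10.4% of clusters). With the letter as a block 1 of 10 was called, E2F2 (4.47% of clusters), and the same gene was called with the repeat set as a block (3.49% of clusters). At the study's own thresholds (over 1.5-fold, unadjusted p under 0.05 and adjusted p under 0.20), E2F2 and E2F3 passed for the mean response, both lower, against 1.59% of clusters lower, and E2F2 passed for shRNA-2, against 1.71%. Every induced array was below every vehicle array of the same hairpin for 2 of 10 genes with shRNA-1, against 2.81% of clusters, and for 3 of 10 with shRNA-2, against 5.79%. For the difference between the hairpins 0 of 10 genes were called (0.00932% of clusters) and 0 of 10 had an unadjusted p under 0.05 (5.18% of clusters).

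In SK-N-AS cells the lowest value of the family was that of E2F3. It had 6.56, 6.87 and 6.28 in induced shRNA-2 cells (repeat with no letter, B and C), against 7.27, 7.85 and 7.44 with vehicle. Control cells had 7.42, 7.40 and 7.42 with DOX, against 7.46, 7.38 and 7.46 with vehicle. All 3 induced arrays were below the other 9. The response was -0.93 (1.90-fold lower, SE 0.23, adjusted p = 0.364 by limma), and it was -0.95 without both control arrays that stood apart (SE 0.27, adjusted p = 0.365).

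E2F2 had a value near 0 in SK-N-AS. It had 5.62, 6.09 and 5.85 in induced cells, against 5.85, 6.32 and 6.30 with vehicle. Control cells had 5.92, 6.78 and 6.21 with DOX, against 6.79, 6.37 and 6.30 with vehicle. Each induced array was below the vehicle array of its repeat, but the control arrays spanned as wide a range, and the response was -0.11 (SE 0.31, adjusted p = 0.996), and -0.03 without both arrays that stood apart (SE 0.25). Leaving out the DOX control array of repeat B alone turned it to 0.12, and leaving out the induced array of the repeat with no letter to 0.00.

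E2F7 had a positive value in SK-N-AS, 0.41 (SE 0.40, adjusted p = 0.973), and 0.35 without both arrays that stood apart (SE 0.30). Without 1 of these arrays alone it was 0.10 (the DOX array of repeat B left out) or 0.66 (the vehicle array with no letter left out). It had 8.73, 8.12 and 8.59 in induced cells, against 8.61, 7.93 and 8.35 with vehicle, and 8.70, 7.67 and 8.46 in DOX-treated control cells, against 8.004, 8.71 and 8.80 with vehicle. Taken by repeat label, which was not shown to pair the arrays of this line, the response ran from -0.58 to 1.23, a spread wider than its size. No test was made between the lines because their arrays were normalized apart. E2F1 had a response of -0.23 (SE 0.14, adjusted p = 0.927), and -0.20 without both arrays, with 6.66, 6.67 and 6.61 in induced cells, all below the 6.86, 6.75 and 6.68 with vehicle.

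**Figure D3:**
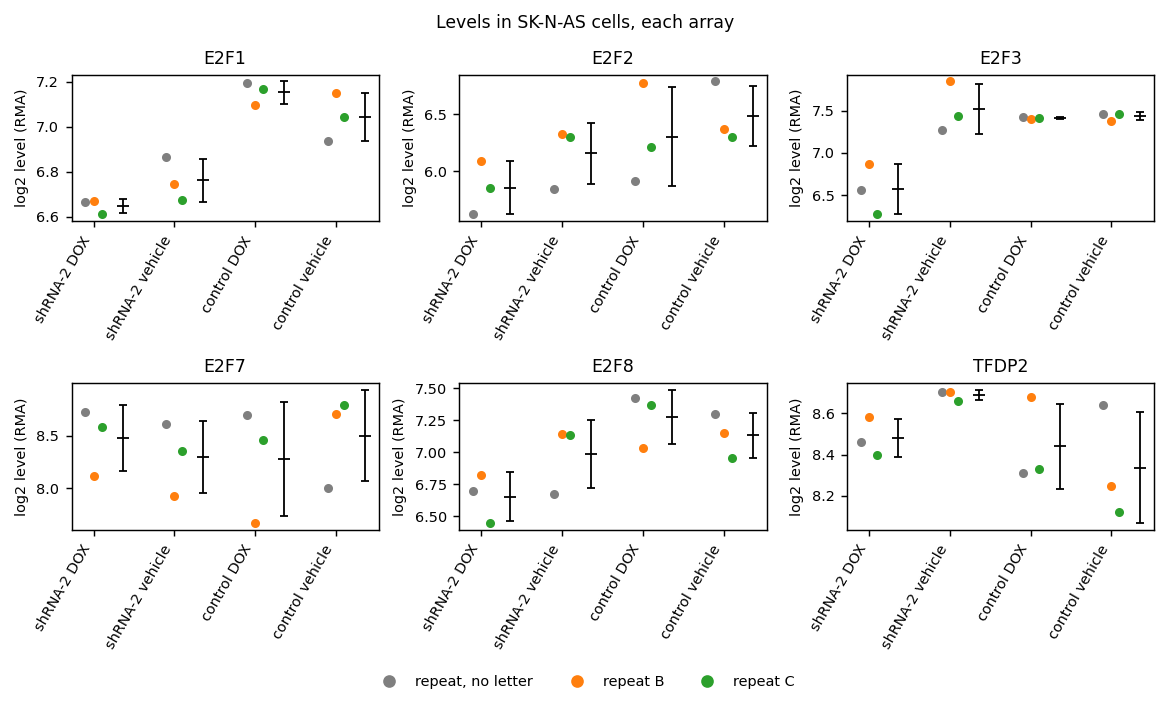
Log2 level of 6 genes on each SK-N-AS array (points, coloured by repeat) with the mean and SD of each group beside them (n = 3). The induced arrays of E2F3 lie between 6.28 and 6.87, below the other 9 arrays, and the control arrays of E2F7 and TFDP2 spread as 2 arrays against 4.

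E2F8 had a response of -0.47 in SK-N-AS (SE 0.23, adjusted p = 0.880), and -0.68 without both arrays that stood apart (SE 0.23, adjusted p = 0.477). TFDP2 had -0.31 (SE 0.20), and -0.35 without both arrays. The values of the remaining genes were -0.15 for E2F6, -0.12 for E2F5, -0.10 for TFDP1 and -0.063 for E2F4. Without both arrays they were -0.12 for E2F6, -0.27 for E2F5, -0.10 for TFDP1 and -0.039 for E2F4. Of the 10 genes 9 had a value below 0, with a median of -0.14, beside 0.02 over all clusters. No gene was called (0 of 10 by limma, 0% of all clusters), and 1 of 10 had an unadjusted p under 0.05 against 5.66% of clusters. All induced arrays were below all vehicle arrays for 4 of 10 genes (E2F1, E2F3, TFDP1 and TFDP2), against 8.21% of clusters.

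**Figure D4:**
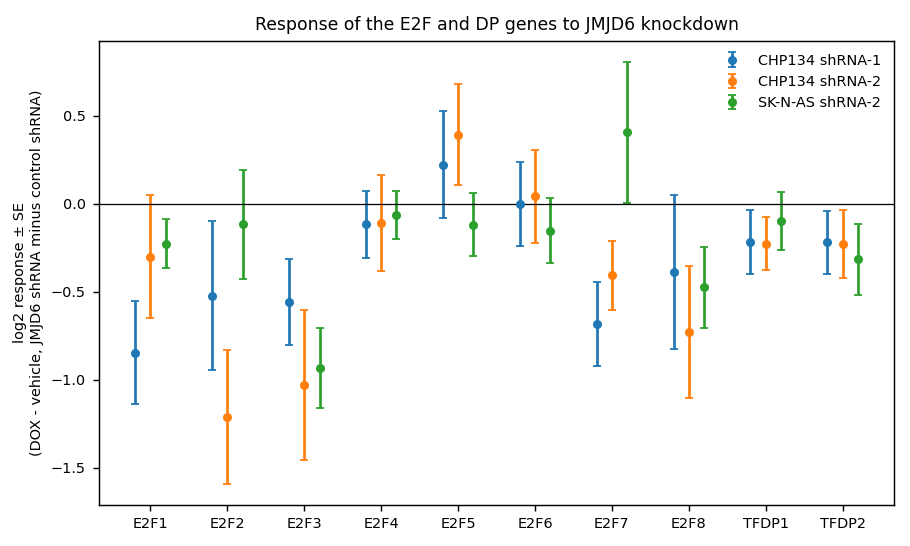
Response of the 10 genes (log2, ± SE) to shRNA-1 and shRNA-2 in CHP134 and to shRNA-2 in SK-N-AS. E2F3 lies at -0.56, -1.03 and -0.93, while E2F7 is below 0 in CHP134 and at 0.41 in SK-N-AS.

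DOX alone was compared with vehicle in the control shRNA cells. In CHP134 control cells the DOX minus vehicle values of the 10 genes ran from -0.20 (E2F3) to 0.07, with 0 of 10 called (limma, 0% of clusters) and 0 of 10 at an unadjusted p under 0.05 (0.979% of clusters). In SK-N-AS control cells they ran from -0.23 to 0.40 (0 of 10 called, 0% of clusters, and 1 of 10 at an unadjusted p under 0.05, against 3.19% of clusters). The highest of these was E2F5, at 8.47, 8.10 and 8.47 with DOX, against 8.004, 7.92 and 7.91 with vehicle, groups that did not overlap (0.40, SE 0.13, adjusted p = 1.000), and it was 0.56 without both arrays that stood apart (SE 0.13, adjusted p = 0.947). E2F5 was also at 8.27, 8.06 and 8.35 in DOX-treated shRNA-2 cells, against 7.84, 8.06 and 7.93 with vehicle, so its response to the hairpin was -0.12 (SE 0.18), smaller in size than its DOX value in control cells.

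Between the uninduced lines no gene of the family passed the threshold without a block or a left-out array. E2F4 stood at 8.39, 8.74, 8.71 and 8.58 in uninduced CHP134 shRNA-1 cells (repeats A, B, E and F), against 8.70 to 9.23 in uninduced control cells (median 9.10). The difference was -0.42 (SE 0.15, adjusted p = 0.300, with 0 of 10 genes and 0% of clusters called, and 1 of 10 at an unadjusted p under 0.05, against 11.2% of clusters), and it was called with the letter as a block at -0.40 (adjusted p = 0.0446, 1 of 10 genes, against 0.788% of clusters). That call was lost in 16 of the 28 blocked fits that left out 1 array each (adjusted p between 0.0369 and 0.235), and it was not made with the repeat set as a block (adjusted p = 0.225). In shRNA-2 cells E2F4 had -0.14 (SE 0.15), and the largest difference was that of E2F7, at 0.34 above control (SE 0.15, adjusted p = 1.000), with 0 of 10 called (0% of clusters) and 1 of 10 at an unadjusted p under 0.05 (2.14% of clusters).

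TFDP2 stood at 8.70, 8.71 and 8.66 in uninduced SK-N-AS shRNA-2 cells, against 8.64, 8.25 and 8.12 in uninduced control cells. The difference was 0.35 (SE 0.14, adjusted p = 0.616), and with 0 of 10 genes called the share over all clusters was 0.00466%. At an unadjusted p under 0.05 there were 2 of 10, E2F1 and TFDP2, against 7.62% of clusters. Without both control arrays that stood apart it was 0.50 (SE 0.10, adjusted p = 0.0211) and called, with 1 of 10 genes against 4.96% of clusters. E2F1 was lower in the same comparison, at -0.28 (SE 0.10, adjusted p = 0.602), and -0.33 without both arrays (adjusted p = 0.0853).

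Genes around the family were read from lists of pathway members. The E2F targets, genes of DNA replication and S phase, had 44 of 47 listed genes measured, and all 44 had a mean response below 0 in CHP134, with a median of -0.32, where 49.6% of all clusters were below 0. After adjustment over all clusters 1 of 44 targets was called, TK1 (thymidine kinase), lower by 1.62-fold (-0.70, SE 0.15, adjusted p = 0.0156), and 13 of 44 were called with the letter as a block, all lower. Over all clusters the shares called were 1.25% and 6.18% with the block, against which the counts of the lists that follow are also to be read. Those 13 include the replicative helicase genes MCM2, MCM5 and MCM7, and also the replication gene MCM10. MCM5 had -0.63 (SE 0.17, adjusted p = 0.0538, and 0.0094 with the block), CDC45 had -0.54 (SE 0.14, adjusted p = 0.0583, and 0.0062 with the block) and the ubiquitin ligase adaptor DTL had -0.51 (SE 0.14, adjusted p = 0.0638, and 0.0100 with the block). In SK-N-AS 41 of 44 targets were below 0, with a median of -0.21, and 0 were called (40 of 44 and -0.24 without both arrays that stood apart, with 0 called).

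Of the DREAM and MuvB list, which holds complexes that share E2F target promoters, 1 of 8 genes was called for the mean response, the mitotic transcription factor FOXM1, lower by 2.40-fold (-1.27, SE 0.33, adjusted p = 0.0496, and 4.3e-04 with the letter as a block). Next to it were MYBL2 at -0.41 (SE 0.15, adjusted p = 0.247), MYBL1 at -0.51 (SE 0.26, adjusted p = 0.524) and LIN9 at -0.33 (SE 0.24, adjusted p = 0.759). The median of the list was -0.22, with 5 of 8 below 0. In SK-N-AS FOXM1 had -1.22 (SE 0.25, adjusted p = 0.270), and -1.20 without both arrays that stood apart (adjusted p = 0.259).

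The pocket proteins had 0 of 3 called, with RB1 at 0.18 (SE 0.13, adjusted p = 0.757), RBL2 at 0.13 (SE 0.18) and RBL1 at -0.24 (SE 0.21). Of the E2F6 complex 0 of 9 measured genes were called, and 1 with the letter as a block, the MYC partner MAX, which was lower (-0.53, SE 0.15, adjusted p = 0.0641, and 0.0115 with the block). Of the regulators upstream of RB, 0 of 13 were called and 1 with the block, the kinase CDK2, which was lower (-0.57, SE 0.21, adjusted p = 0.259, and 0.0155 with the block). CDKN1B, an inhibitor of CDK2, had 0.30 (SE 0.13, adjusted p = 0.349). Of 5 genes for the turnover of E2F proteins 0 were called and 1 with the block, the ubiquitin ligase subunit CCNF, which was lower (-0.48, SE 0.16, adjusted p = 0.155, and 0.0294 with the block).

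**Figure D5:**
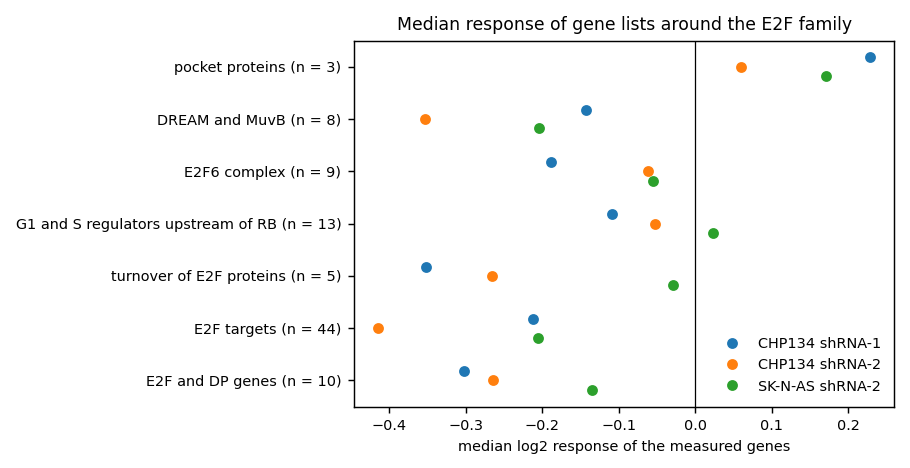
Median response (log2, horizontal axis) of each gene list and of the 10 E2F and DP genes, for each hairpin and line, with the number of measured genes in brackets. The E2F targets lie at -0.21 with shRNA-1, -0.41 with shRNA-2 and -0.21 in SK-N-AS, while the pocket proteins lie above 0.

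MYCN and MYC encode regulators of E2F genes, and in CHP134 MYCN had the opposite direction to E2F2. MYCN averaged 12.67 ± 0.08 in induced shRNA-2 cells, against 12.23 ± 0.16 with vehicle, and 12.56 ± 0.08 in induced shRNA-1 cells, against 12.27 ± 0.09 with vehicle (SD, n = 4 each). The mean response of MYCN was 0.33 (SE 0.12, adjusted p = 0.205), and it was called, higher, with the letter as a block (adjusted p = 0.0178). By RT-PCR and immunoblot the study reported the other direction, less N-Myc mRNA and protein after JMJD6 knockdown in CHP134, at a later time than these arrays. In SK-N-AS MYCN stood at 3.90 to 4.52, above background on 11 of 12 arrays. Its response there was 0.060 (SE 0.21, adjusted p = 0.996 by limma), and 0.095 without both arrays that stood apart. MYC was above background on 9 of 28 CHP134 arrays, and in SK-N-AS its response was -0.071 (SE 0.19, adjusted p = 0.996), and -0.0056 without both arrays that stood apart.

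Over the 28 CHP134 arrays the genes with a level most like that of E2F2 were MCM2 (Pearson r = 0.94), FOXM1 (r = 0.93) and TPTEP2-CSNK1E (r = 0.92). For E2F3 they were USP46 (r = 0.95), ALCAM (r = 0.93) and ANKRD40 (r = 0.93). For E2F8 they were NCAPH, a condensin subunit (r = 0.90), SPIRE1 (r = 0.88) and TMEM184C (r = 0.85). For E2F1 they were ZFPL1 (r = 0.89), SH3GL1 (r = 0.89) and FSCN1 (r = 0.88), and for E2F7 RAPGEF2, POMZP3 and CENPI (r = 0.86 to 0.87). The arrays share hairpins, treatments and repeat sets, so these values describe likeness and carry no test. After each gene was centred within its repeat set, r was 0.94 for MCM2 and 0.96 for FOXM1 with E2F2, and 0.80 to 0.82 for the 3 genes nearest to E2F7. Centring took r from 0.81 to 0.69 for C1QL1 with E2F5 and from 0.83 to 0.66 for PTCD3 with E2F6. For HAT1 with TFDP1 it rose from 0.87 to 0.91.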

How the data were processed

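The authors deposited 1 table of log2 expression values, normalized by RMA (background correction, quantile normalization and summary per transcript cluster) within each cell line, and the labels also name limma. Versions are not given in the sources used here. The table held 44 columns, of which 4 CHP134 control columns were identical to other columns and were counted once, leaving 40 arrays. The 5741 control probe sets among the 27189 rows were dropped, and 21448 clusters were tested. Gene symbols came from the platform annotation. Lines were normalized apart, so nothing was tested across them.

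Comparisons were fitted with limma 3.58.1 (lmFit and eBayes, two-sided) in R 4.3.3, with Benjamini-Hochberg adjustment over all clusters and a threshold of 0.05, after a test on simulated data. shRNA-1 was fitted with control repeats A, B, E and F, shRNA-2 with A to D, and the mean response, the difference between hairpins and the control comparisons with all arrays of the line. Letters follow the sample titles, since the series' design text gives the letters of the 2 hairpins the other way round. The deviations of all 54 same-letter array pairs in CHP134 correlated by 0.14 to 0.59, so letters pair these arrays. In SK-N-AS only 4 of 18 pairs correlated by over 0.1, and 6 of 12 arrays were closest to an array of their own letter. Both control arrays that stood apart enter this check, so it shows no pairing by letter but cannot exclude it.

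All 10 genes are named in every comparison, with JMJD6, MYCN, MYC and TFDP3 as context. Of the other lists up to 4 genes with the smallest p for the mean response are named, and for likeness the 3 genes with the highest Pearson r. The members and lists were chosen with earlier results of these data known. Alternatives were the letter or repeat set as a block, each repeat set alone, a filter on dim clusters, median centring, trend and robust moderation, array weights, all CHP134 arrays for a single hairpin, the study's thresholds, and leaving out each array. The number of arrays limits the precision.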

Additional observations from a re-analysis of the deposited data

Results flagged for a closer look

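Of 60 sets that were checked, each the values of 1 gene in 1 group of at least 4 arrays, 1 held an array far from the rest. The SK-N-AS groups, with 3 arrays each, are below that size. E2F5 stood at 8.20 in vehicle-treated CHP134 cells with JMJD6 shRNA-1 of repeat B, while the other 3 arrays of that group lay between 7.39 and 7.51. Chance flags about 1 in 20 such sets, and these sets share arrays.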

How the results depend on the processing

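Over 51 alternatives and 2830 values of the 10 genes, 154 changed sign and 11 were called only under the alternative. With a replicate block (the letter), E2F2 (-0.88), E2F3 (-0.85) and E2F7 (-0.53) passed the threshold for the CHP134 mean response, so 3 genes were called, and 1 each for shRNA-2 (E2F2) and for uninduced shRNA-1 (E2F4). With the repeat set as a block 4 genes were called for the mean response, with E2F1 (-0.60) besides E2F2 (-0.88), E2F3 (-0.85) and E2F7 (-0.53), and 1 for shRNA-2. The study's thresholds called 2 genes for the mean response and 1 for shRNA-2. The paired fits changed no other call of the 10 genes. Without both SK-N-AS control arrays that stood apart, 1 gene was called between the uninduced lines (TFDP2). This alternative and the blocked fits without single arrays were chosen after seeing the data.

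Of the 154 sign changes, 48 were in the DOX comparison of CHP134 control cells. In uninduced CHP134 cells there were 23 for shRNA-1 and 26 for shRNA-2 against control. E2F3, lower with DOX on average in CHP134 control cells, was at 0.017 and 0.12 in repeats E and F. Among the hairpin responses, signs turned for values near 0. E2F4 had 0.029 for the mean response and 0.14 for shRNA-2 within repeats A and B. E2F6 had -0.032 for the mean response, -0.053 for shRNA-1 and -0.027 for shRNA-2 with array weights, -0.15 for shRNA-1 within repeats E and F, -0.057 for shRNA-2 within repeats A and B, and -0.023 for shRNA-2 with all CHP134 arrays. Without single arrays, E2F6 had -0.068 to 0.099 for the mean response, -0.10 to 0.13 with shRNA-1 and -0.10 to 0.20 with shRNA-2. E2F4 ran from -0.27 to 0.0088 for shRNA-2 and E2F2 from -0.31 to 0.12 in SK-N-AS. The mean response ran from -0.72 to -0.48 for E2F1, from -1.03 to -0.77 for E2F2, from -0.999 to -0.62 for E2F3 and from -0.58 to -0.45 for E2F7, with none called without a block. The cause of these changes was not tested.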
